A study of Mus musculus with 12 samples.

Results

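The genes described here are the 39 that carry glucose into the cell, break it down to pyruvate, turn pyruvate into lactate or carry pyruvate to the pyruvate dehydrogenase complex of mitochondria. They were listed by name in 12 steps of the pathway, with earlier results of these data known. A named probe was present for 38 of the 39 (Pdk2 had none), and 36 were tested among 19047 features. The untested pair, Pdk4 and the transporter gene Slc16a7, were above background on 2 and 0 of the 12 arrays. The 38 genes had 64 probes, of which 57 were kept, and 25 of the 36 tested genes were above background on all 12 arrays.

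Each array held amplified RNA of 1 mouse morula, the compacted embryo that precedes the blastocyst, of the strain (C57BL/6 x DBA/2) F1, cultured for 72 h in KSOM medium. The 3 classes of 4 embryos were IVF embryos, which were not treated, and clones made with Sertoli cells, the nurse cells of the testis, injected with Control siRNA (siCont) or Xist siRNA (siXist) at the pronuclear stage, 6 to 7 h after activation. Clones were all male, IVF embryos 1 and 3 were male and IVF embryos 2 and 4 were female. Clones thus differ from IVF embryos by nuclear transfer, by injection and, for 2 of the 4, by sex, and no uninjected clone was analysed here. Whether embryos of a class shared a litter, a donor or a day is not given, so p-values measure the spread between these embryos. Each class lay on its own slide, so slide and class cannot be told apart, except that both sexes of IVF embryos shared 1 slide.

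Glycolysis converts glucose to pyruvate with a small yield of ATP and supplies carbon for synthesis. Lactate dehydrogenase then interconverts pyruvate and lactate, while the mitochondrial carrier and pyruvate dehydrogenase pass pyruvate to the citric acid cycle. Early mouse cleavage embryos are known to depend on pyruvate and lactate, and glucose use increases towards compaction and the blastocyst. In whole embryos, a smaller share of cells that express a gene and less of its RNA in each cannot be told apart. Values are relative to the array, so cell number and total RNA are not measured.

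Values are log2 processed signals minus the log2 of the 75th percentile of the array, so a difference of 1 is a doubling relative to the array. Arrays had 50.8% to 61.4% of their probes above background and 0 saturated spots. The lowest share was that of siCont clone 3, and the next lowest was 56.0%. Whether this bears on the values of siCont clone 3 was not tested. Xist, the targeted RNA, ranged from 4.56 to 5.65 in siCont clones and from 1.36 to 2.45 in siXist clones, a difference of -3.04 ± 0.48 (limma, adjusted p = 0.11), and the groups did not overlap. Of 14 morula-defining genes, 13 were tested (Nanog had no named probe). All 13 were above background in every IVF embryo, 11 to 13 in siCont clones and 12 to 13 in siXist clones. Their levels differed more: at an unadjusted limma p under 0.05, 1 was higher and 4 lower in siCont clones than in IVF embryos (median difference -0.35). Of all features, 6.84% were higher and 6.73% lower there. In siXist clones 0 were higher and 1 lower (median -0.29), against 5.05% and 8.84%.

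A gene was called when its adjusted p was under 0.05 in limma, adjusted by Benjamini-Hochberg over all features. Pfkl, Tpi1 and Ldha were called higher in both clone classes than in IVF embryos, by 6.06-fold to 21.8-fold. They were the 3 of 36 genes called in each comparison, where 0.226% of all features were called higher in siCont clones and 0.415% were called in either direction. For siXist clones against IVF embryos these shares were 0.284% and 0.578%. No listed gene was called lower in clones, and none was called between the clone classes, where 0.0105% of features were called. Where embryos of classes are said below not to overlap, the share of all features that separate likewise was not counted. Both comparisons use the same 4 IVF arrays, so they are not independent of each other.

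The promoter windows of these 3 genes are shown because the genes were higher together in clones. Each window is 300 bases long, most of them before the start that RefSeq gives in GRCm38.p6, and is written 5′ to 3′ on the strand of the gene. Capitals mark ACGTG or its reverse complement CACGT, a form of the core of the hypoxia response element. Where both overlap as CACGTG, they are the letters of the E-box that Myc binds. The form GCGTG was neither marked nor counted, and it stands in the printed Ldha and Pfkl windows. The Ldha window lies at chr7:46845554-46845853 (+), that of Pfkl at chr10:78009758-78010057 (-) and that of Tpi1 at chr6:124814109-124814408 (-).
Ldha: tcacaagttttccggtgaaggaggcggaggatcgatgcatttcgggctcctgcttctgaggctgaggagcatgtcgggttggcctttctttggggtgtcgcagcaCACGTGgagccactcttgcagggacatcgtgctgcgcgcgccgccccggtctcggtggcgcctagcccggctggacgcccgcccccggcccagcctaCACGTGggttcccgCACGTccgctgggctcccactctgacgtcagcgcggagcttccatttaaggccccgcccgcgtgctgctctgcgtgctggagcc
Pfkl: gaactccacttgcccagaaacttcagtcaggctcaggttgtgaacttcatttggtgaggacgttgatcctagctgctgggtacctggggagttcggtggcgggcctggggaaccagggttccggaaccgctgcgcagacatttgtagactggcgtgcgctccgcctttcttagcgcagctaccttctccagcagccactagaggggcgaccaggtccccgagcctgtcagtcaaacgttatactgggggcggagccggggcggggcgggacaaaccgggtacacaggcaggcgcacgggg
Tpi1: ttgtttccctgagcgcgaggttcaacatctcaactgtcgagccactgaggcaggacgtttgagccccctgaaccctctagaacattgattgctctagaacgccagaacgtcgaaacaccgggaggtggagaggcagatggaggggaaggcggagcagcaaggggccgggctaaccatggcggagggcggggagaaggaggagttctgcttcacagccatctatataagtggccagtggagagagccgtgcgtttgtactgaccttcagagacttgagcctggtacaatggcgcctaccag

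The Ldha window held 5 matches counted over both strands, 4 of them in the overlapping pairs of 2 CACGTG motifs. The Pfkl and Tpi1 windows and the second Ldha window, at chr7:46846832-46847131, held 0 matches to ACGTG on either strand. This does not speak to the form GCGTG, which was not counted. Among listed genes with a window, 18 of 35 held ACGTG on either strand, against 21.8% of all 27025 genes with a window and 28.0% of the 10843 that were tested on the arrays. Listed genes have more windows for each gene, and by window ACGTG stood in 22 of 54 against 19.6% of all 32851. The latter include genes not tested on the arrays, and the share by window among tested genes was not counted. CACGTG stood in 5 of 35, against 8.09% and 11.4%. These are matches of letters in a window, and no binding was measured.

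Glucose enters through the facilitative carriers Slc2a1 (GLUT1) and Slc2a3 (GLUT3). Slc2a1 was 3.27, 4.05, 3.71 and 2.91 in IVF embryos 1 to 4, 4.87, 5.93, 3.89 and 6.47 in the siCont clones, and 6.12, 6.38 and 5.16 in siXist clones 1 to 3 (the spot of clone 4 was an outlier and is missing from the fit). The siXist clones lay above all IVF embryos and siCont clone 3 lay below IVF embryo 2. The differences from IVF embryos were 1.81 ± 0.60 (SE) for siCont and 2.40 ± 0.65 for siXist clones, with limma adjusted p of 0.261 and 0.167. Slc2a3 was 5.55, 6.12, 5.11 and 3.64 in IVF embryos, 6.01, 5.26, 7.34 and 7.22 in the siCont clones, and 7.20, 7.17, 6.14 and 6.41 in siXist clones. Here too siXist clones lay above IVF embryos, with 1.62 ± 0.63 and an adjusted p of 0.298, while siCont clones overlapped them (1.35 ± 0.63, adjusted p = 0.385).

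Hexokinases trap glucose as glucose 6-phosphate. Hk2, the isozyme that responds to insulin in muscle, was 6.34, 6.64, 6.32 and 6.50 in IVF embryos, 7.32, 6.96, 8.01 and 6.74 in the siCont clones, and 6.08, 5.81, 6.23 and 5.94 in siXist clones. The 3 classes did not overlap for this gene, with siCont clones highest and siXist clones lowest. The siXist minus siCont difference of -1.24 ± 0.32 had the smallest p of the listed genes in that comparison and did not pass (unadjusted p = 0.00314, adjusted p = 0.266). The differences from IVF embryos were 0.80 ± 0.32 for siCont and -0.43 ± 0.32 for siXist clones (adjusted p of 0.314 and 0.559). Hk1, the housekeeping isozyme, differed from IVF embryos by 0.09 ± 0.72 and -0.73 ± 0.72, and siXist clone 3, at 2.43, lay apart from the other embryos, which were 4.91 to 6.48, so that without it the siXist difference was 0.03. Of 3 other kept Hk1 probes, all not above background on 1 or more arrays, 2 had the opposite sign between the clone classes (1.18 and 0.48 against -0.83) and all had a negative siCont minus IVF difference (-1.28 to -0.29). Adpgk, an ADP-dependent glucokinase, differed by 0.50 ± 0.39 and 0.46 ± 0.39.

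Gpi1, which turns glucose 6-phosphate into fructose 6-phosphate, was 3.57, 3.28, 3.75 and 3.31 in IVF embryos, 3.71, 3.26, 3.50 and 4.43 in the siCont clones, and 4.24, 4.62, 4.62 and 4.02 in siXist clones. The siXist clones lay above all IVF embryos, and siCont clones spanned both ranges. The siXist minus IVF difference was 0.90 ± 0.32 (adjusted p = 0.256) and the siXist minus siCont difference 0.65 ± 0.32 (adjusted p = 0.394).

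Phosphofructokinase commits hexose to glycolysis, and Pfkl encodes its liver-type subunit. Pfkl was -4.35, -4.28, -3.74 and -6.21 in IVF embryos, -1.07, -1.64, -1.46 and -1.37 in the siCont clones, and -1.15, -1.19, -0.40 and -0.44 in siXist clones. All 8 clones lay above all 4 IVF embryos, of which embryo 4 was not well above background. The difference from IVF embryos was 3.26 ± 0.44 for siCont clones (9.57-fold, limma adjusted p = 0.0157) and 3.85 ± 0.44 for siXist clones (14.4-fold, adjusted p = 0.00768). Between the clone classes it was 0.59 ± 0.44 (adjusted p = 0.54). The other subunits varied more among embryos of a class. Pfkm, the muscle type, ranged from -6.68 to -0.30 in siCont clones and differed from IVF embryos by 0.40 ± 1.23 and -1.84 ± 1.23. Pfkp, the platelet type, gave 2.46 ± 1.35 and 1.80 ± 1.35, but its other kept probe, above background on all 12 arrays, gave -0.28 and -0.01, and between the clone classes 0.27 against -0.66.

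The Pfkfb enzymes set fructose 2,6-bisphosphate, the activator of phosphofructokinase, and the 4 genes did not share a direction. Pfkfb3, whose product mainly makes the activator, was 1.77, 2.09, 0.40 and 1.59 in IVF embryos, 2.93, 3.18, 6.44 and 1.52 in the siCont clones, and 2.23, 1.40 and 1.58 in siXist clones 1 to 3, with clone 4 missing. Only siCont clone 3, whose array had the lowest share of probes above background, lay far above the rest. The siCont minus IVF difference was 2.05 ± 0.93 (adjusted p = 0.375), or 1.08 without that clone. Pfkfb2 was 0.55, 1.89, 1.21 and 0.46 in IVF embryos, -0.66, 0.11, -1.98 and -0.67 in the siCont clones, and 0.85, -0.65, -0.02 and 0.65 in siXist clones. Its siCont values lay below all IVF values (-1.83 ± 0.54, adjusted p = 0.209), and siXist clones exceeded siCont clones by 1.01 ± 0.54 (adjusted p = 0.42). A dimmer Pfkfb2 probe, above background in 1 siXist clone, gave -2.32 for the latter. Pfkfb1, an X-linked gene, was 1.08, 1.51, 1.11 and 0.83 in IVF embryos, -0.34, 1.00, -6.49 and -1.63 in the siCont clones, and 0.46, -0.56, -0.48 and -0.46 in siXist clones. Its siXist values lay below all IVF values, and siCont clone 3 was not above background (7.98-fold lower in siCont and 2.63-fold lower in siXist clones, with an SE of 1.30 in log2 and adjusted p of 0.353 and 0.643). Without siCont clone 3 the former was 2.74-fold lower (adjusted p = 0.403). Pfkfb4 differed by -0.38 ± 0.49 and -0.36 ± 0.49.

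Aldolase splits the hexose, and triose phosphate isomerase makes both products usable. Aldoa was 5.35, 5.65, 5.46 and 5.10 in IVF embryos, 6.32, 6.26, 7.00 and 6.93 in the siCont clones, and 6.84, 6.95, 6.40 and 6.74 in siXist clones. All clones lay above all IVF embryos, and the differences of 1.24 ± 0.30 and 1.34 ± 0.30 did not pass (limma adjusted p of 0.125 and 0.0974). A second Aldoa probe gave 1.18 and 1.36. Tpi1, the isomerase gene, was 0.93, 1.02, 1.73 and 0.06 in IVF embryos, 3.73, 2.96, 3.44 and 4.01 in the siCont clones, and 4.88, 4.32, 3.94 and 3.24 in siXist clones. The lowest clone lay 1.23 above the highest IVF embryo. Tpi1 rose by 2.60 ± 0.44 in siCont clones (6.06-fold, limma adjusted p = 0.042) and by 3.16 ± 0.44 in siXist clones (8.93-fold, adjusted p = 0.0192) relative to IVF embryos. Between the clone classes the difference was 0.56 ± 0.44 (adjusted p = 0.561). Aldoc, the brain-type aldolase, differed from IVF embryos by 1.97 ± 0.89 and 1.82 ± 0.89 and overlapped between classes. Its value in IVF embryo 4, -6.67, was not above background.

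The lower part of glycolysis, from Gapdh to Pkm, had 8 genes and none was called. Of these, 7 had a positive siCont minus IVF difference and 6 a positive siXist minus IVF difference, where 48.2% and 38.3% of all features did. Pkm, the pyruvate kinase gene, was 0.66, 1.42, 1.08 and -0.41 in IVF embryos, 2.39, 2.43, 2.02 and 2.39 in the siCont clones, and 2.73, 2.95, 2.44 and 2.19 in siXist clones. All clones lay above all IVF embryos, with differences of 1.62 ± 0.40 and 1.89 ± 0.40 (adjusted p of 0.13 and 0.08). The probe does not tell the spliced forms of pyruvate kinase apart by name. Bpgm, which makes 2,3-bisphosphoglycerate, was 1.46, -0.02, 1.60 and 0.55 in IVF embryos, 1.98, 3.10, 3.15 and 2.27 in the siCont clones, and 2.08, 1.02, 1.26 and 1.30 in siXist clones. The siCont clones lay above all IVF embryos (1.73 ± 0.38, adjusted p = 0.101) and siXist clones overlapped them. Between the clone classes Bpgm differed by -1.21 ± 0.38 (adjusted p = 0.296), where a second probe gave -0.22.

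Pgam1, the phosphoglycerate mutase gene, was 7.86, 8.04, 7.35 and 7.43 in IVF embryos, 8.06, 7.62, 8.08 and 7.02 in the siCont clones, and 8.03, 7.37, 6.73 and 7.64 in siXist clones. The classes overlapped, with differences of 0.02 ± 0.39 and -0.23 ± 0.39. Pgk1, X-linked and the first ATP-making step, was 4.63, 4.18 and 3.01 in IVF embryos 2 to 4, 3.58, 5.44, 5.95 and 2.45 in the siCont clones, and 3.94 and 5.15 in siXist clones 2 and 3. The other 3 Pgk1 spots were outliers, the classes overlapped and the differences were 0.35 ± 0.99 and 0.54 ± 1.17. Between the clone classes Pgk1 gave 0.19 ± 1.09 and its second probe -0.19. Gapdh ranged from 1.26 to 4.66 in IVF embryos, 3.37 to 5.18 in siCont and 4.69 to 6.02 in siXist clones, with differences of 1.56 ± 0.65 and 2.33 ± 0.65 (adjusted p of 0.33 and 0.167). The enolase genes gave 1.46 ± 0.37 and 1.16 ± 0.37 for Eno2, 0.93 ± 0.65 and 2.14 ± 0.65 for Eno1, and -1.01 ± 1.11 and -0.51 ± 1.11 for Eno3. The Eno1 probe was dim, at -5.37 to -3.64 in IVF embryos, though above background on all 12 arrays.

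**Figure D1:**
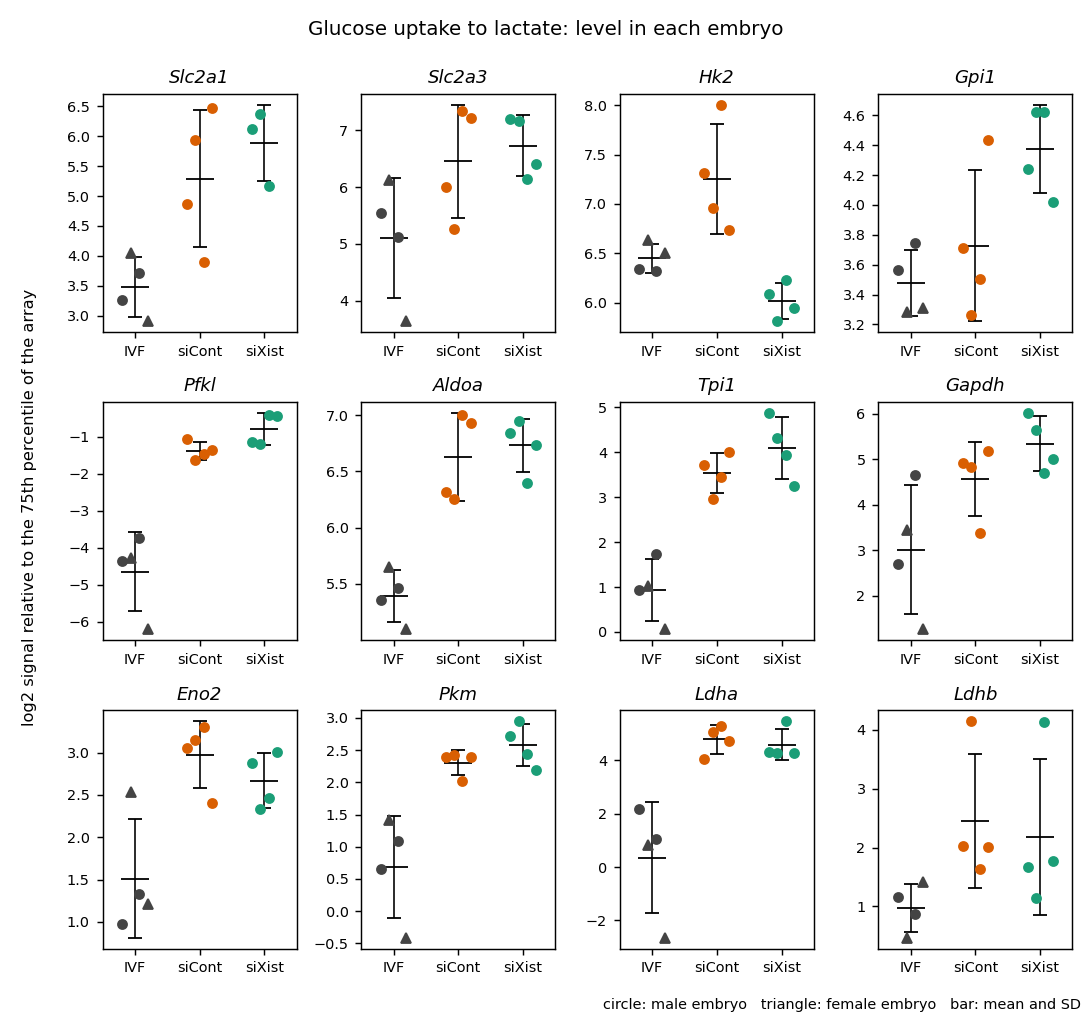
Level of 12 genes from glucose uptake to lactate in each embryo (y axis, log2 signal relative to the 75th percentile of the array) by class (x axis). Circles are male and triangles female embryos, and bars give the mean and SD of a class. Pfkl, Aldoa, Tpi1, Pkm and Ldha lie higher in all 8 clones than in all 4 IVF embryos, and Hk2 separates the 3 classes. The share of all features that separate likewise was not counted.

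Ldha encodes the muscle-type subunit of lactate dehydrogenase and had the largest difference of the listed genes in both comparisons with IVF embryos. It was 2.18, 0.81, 1.04 and -2.65 in IVF embryos, 4.05, 5.08, 5.29 and 4.74 in the siCont clones, and 4.31, 4.29, 5.47 and 4.29 in siXist clones. All clones lay above all IVF embryos, by 1.87 at the closest, and IVF embryo 4 lay far below the other 3. Ldha rose by 4.44 ± 0.69 in siCont clones (21.8-fold, limma adjusted p = 0.0342) and by 4.24 ± 0.69 in siXist clones (18.9-fold, adjusted p = 0.0314) relative to IVF embryos. A second Ldha probe gave 4.76 and 4.62. Between the clone classes Ldha differed by -0.20 ± 0.69 (adjusted p = 0.908). Ldhb, the heart-type subunit, was 0.47 to 1.41 in IVF embryos, 1.63 to 4.14 in siCont and 1.15 to 4.13 in siXist clones, with differences of 1.47 ± 0.73 and 1.20 ± 0.73 (adjusted p of 0.411 and 0.49).

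The calls of Pfkl, Tpi1 and Ldha depended on which arrays entered, on the model and on the scaling, while their direction did not turn under any of 23 alternatives. Against the 2 male IVF embryos alone, the sex of all clones, the siCont differences were 2.66, 2.20 and 3.18 and the siXist differences 3.25, 2.76 and 2.98 for these 3 genes in that order, and 0 were called (limma adjusted p from 0.0741 to 0.359). Without IVF embryo 1, 0 of the 3 were called in siCont clones (adjusted p from 0.0676 to 0.138) and Pfkl alone in siXist clones (3.70, adjusted p = 0.032). Pfkl alone was also called in siCont clones without IVF embryo 3 or siCont clone 2, 3 or 4, where Ldha had an adjusted p of 0.0777 to 0.124 and Tpi1 of 0.0694 to 0.105. The same held in siXist clones without siXist clone 2 or 3, with an adjusted p of 0.0717 and 0.095 for Ldha and 0.0512 and 0.0504 for Tpi1. Without IVF embryo 4, which was lowest of the IVF embryos for all 3 genes, the siCont differences were 2.78, 2.36 and 3.58 (Tpi1 no longer called, adjusted p = 0.116) and the siXist differences 3.37, 2.92 and 3.38, all called. In siCont clones the Tpi1 call also ended without siCont clone 1 or siXist clone 2 or 3 (adjusted p from 0.0523 to 0.0737). With all 12 arrays but 1 mean for both sexes of IVF embryos, Ldha was not called in siCont or siXist clones (adjusted p of 0.0541 and 0.0567). With only the groups compared, 0 were called in siCont clones and Ldha was not called in siXist clones (adjusted p = 0.0864). On the scaling of the authors' deposited table none of the 3 was called in siCont clones (adjusted p from 0.0647 to 0.14), and Tpi1 was not called in siXist clones (adjusted p = 0.107). In siXist clones the Ldha call also ended without IVF embryo 3, siCont clone 4 or siXist clone 1 or 4 (adjusted p from 0.0508 to 0.106).

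Taken by counts, the 22 genes from uptake to lactate dehydrogenase had positive differences for 21 in siCont and 17 in siXist clones against IVF embryos, with medians of 1.41 and 1.27. Over all features the medians were -0.04 and -0.23, and 48.2% and 38.3% of the differences were positive. At an unadjusted p under 0.05, 11 of the 22 were higher in each comparison and 0 lower, where 6.84% and 5.05% of all features were higher and 6.73% and 8.84% lower. Steps were joined into this group after their values were seen. The 4 Pfkfb genes were put in neither this group nor that of pyruvate transport below. Of those 4, 1 had a positive difference in each comparison, with medians of -1.10 in siCont and -0.59 in siXist clones. At the same unadjusted p, 2 of them were lower in siCont clones, 0 were lower in siXist clones and 0 were higher in either. Against male IVF embryos alone the count was 9 in siCont and 8 in siXist clones, and without IVF embryo 4 it was 7 and 10. In the authors' deposited value table, whose scaling moves the siCont minus IVF median of all features to -1.13, the siCont count was 3 and 13 of 22 differences were positive, while 21 of 22 lay above that median. Per embryo, the median of the 22 centred genes was -1.21 to -0.53 in IVF embryos, 0.24 to 0.73 in siCont clones and 0.24 to 0.70 in siXist clones.

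**Figure D2:**
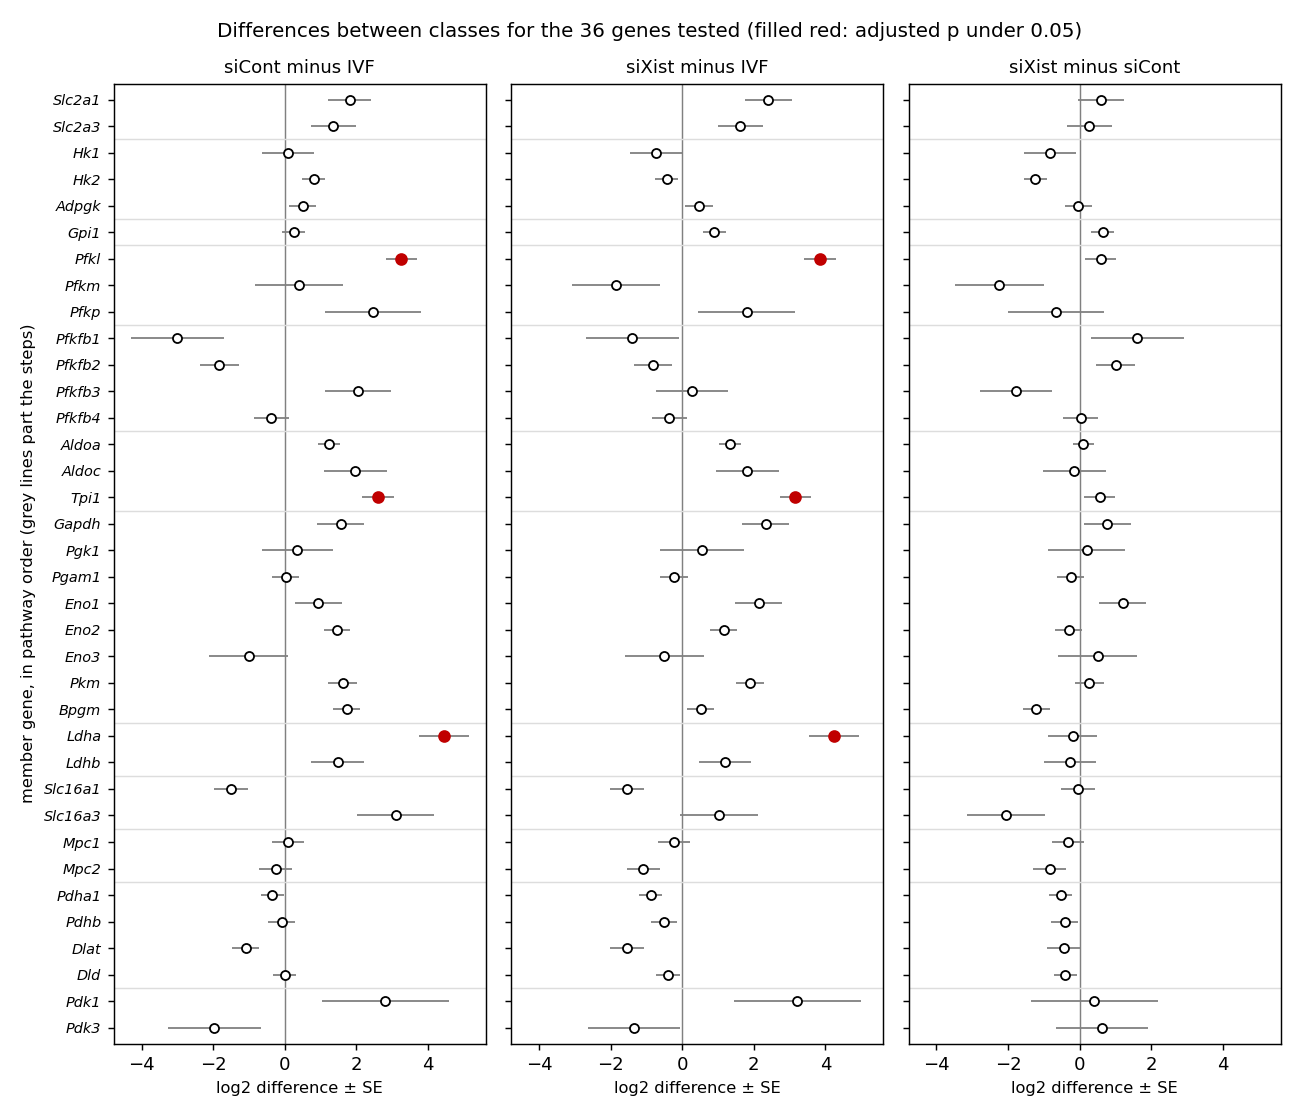
Log2 difference ± SE (x axis) of the 36 tested genes in pathway order (y axis) for siCont minus IVF, siXist minus IVF and siXist minus siCont. Filled red points have an adjusted p under 0.05: Pfkl, Tpi1 and Ldha in both comparisons with IVF embryos, and none between the clone classes.

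Markers of other cell types were read beside these genes. Linear signals relative to the 75th percentile, summed over the 5 of 12 cumulus genes that were tested, were 2.41 to 4.58 in IVF embryos, 4.07 to 8.88 in siCont and 3.40 to 7.17 in siXist clones, and Has2, Tnfaip6, Ptgs2, Fshr, Inha, Inhba and Vcan were not kept. For 8 of 12 Sertoli genes the sums were 4.57 to 5.37, 3.12 to 13.5 and 3.77 to 16.1, and Amh and Wt1, which help define these cells, were not kept. For 8 of 10 oocyte genes they were 5.84 to 10.4, 10.9 to 15.5 and 5.81 to 11.1, and for 7 of 10 sperm genes 0.110 to 0.345, 0.655 to 1.24 and 0.231 to 0.832. The oocyte and sperm sums of siCont clones lay above those of IVF embryos. Of the 7 sperm genes, 2 to 6 were above background in IVF embryos, 4 to 7 in siCont and 5 to 7 in siXist clones. Genes kept through the clones, such as Gapdhs, enter the sperm sum, so its height in clones is in part set by the filter. The part of these markers in the differences of the listed genes was not tested.

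Pyruvate and lactate cross the membrane through monocarboxylate carriers. Slc16a1 (MCT1) was 4.95, 4.89, 5.12 and 4.27 in IVF embryos, 2.86, 4.47, 3.31 and 2.58 in the siCont clones, and 2.61, 2.93, 4.07 and 3.45 in siXist clones. All siXist and 3 of 4 siCont clones lay below all IVF embryos. The differences were -1.50 ± 0.48 and -1.54 ± 0.48 (limma adjusted p of 0.23 and 0.203), a second probe gave -1.61 and -1.62, and a dimmer further probe gave -0.48 and 0.05, and 0.53 between the clone classes where the first gave -0.04. Slc16a3 (MCT4), the carrier linked with lactate export, was -3.64, -4.16, -4.64 and -4.33 in IVF embryos, -3.49, -0.97, 1.53 and -1.47 in the siCont clones, and -1.87, -5.02, -1.49 and -4.27 in siXist clones. The siCont clones lay above all IVF embryos, clone 1 by little, and siXist clones spread on both sides. The differences from IVF embryos were 3.09 ± 1.08 and 1.03 ± 1.08 (adjusted p of 0.267 and 0.685), and between the clone classes -2.06 ± 1.08 (adjusted p = 0.411).

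The mitochondrial pyruvate carrier is made of the Mpc1 and Mpc2 products. Mpc2 was 6.86, 6.27, 6.18 and 6.42 in IVF embryos, 6.40, 5.73, 7.46 and 5.14 in the siCont clones, and 5.31, 5.36, 5.24 and 5.49 in siXist clones. The siXist clones lay below all IVF embryos, with the smallest SD of any listed gene in that class (0.11), and siCont clones spanned both. The differences were -0.25 ± 0.46 and -1.08 ± 0.46 (adjusted p of 0.842 and 0.335). Mpc1 differed by 0.09 ± 0.45 and -0.24 ± 0.45.

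Pyruvate dehydrogenase turns pyruvate into acetyl-CoA. Pdha1, X-linked and encoding the subunit that the kinases phosphorylate, was 6.86, 7.34, 6.53 and 7.29 in IVF embryos, 6.86, 6.06, 7.07 and 6.63 in the siCont clones, and 6.55, 5.76, 5.80 and 6.39 in siXist clones. The siXist clones overlapped male IVF embryo 3 and lay below the other IVF embryos. The differences were -0.35 ± 0.33 and -0.88 ± 0.33 (adjusted p of 0.676 and 0.274). Dlat, the acetyltransferase, was 3.76, 4.02, 3.52 and 3.49 in IVF embryos, 2.34, 1.95, 2.83 and 3.28 in the siCont clones, and 2.48 and 1.85 in siXist clones 2 and 3, with the other 2 missing as outliers. On this probe all measured clones lay below all IVF embryos, by -1.09 ± 0.39 and -1.53 ± 0.47 (adjusted p of 0.288 and 0.226). A second kept probe, which measured all siXist clones, was 1.95, 1.50, 2.47 and 0.25 in IVF embryos, 1.24, 0.64, 0.18 and 0.71 in the siCont clones, and 0.07, 0.74, -8.91 and 0.78 in siXist clones. There the classes overlapped through IVF embryo 4, siXist clone 3 was not above background, and the differences were -0.85 ± 1.86 and -3.37 ± 1.86. Pdhb and Dld, the latter shared with other dehydrogenases, differed by -0.09 ± 0.37 and -0.01 ± 0.33 in siCont and by -0.51 ± 0.37 and -0.40 ± 0.33 in siXist clones. A dim second Dld probe gave 0.06 for siXist clones, and 0.85 between the clone classes where the first gave -0.40.

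The Pdk kinases switch the complex off, and the tested genes were Pdk1 and Pdk3. Pdk3, X-linked, was -0.60, 0.30, -0.45 and -2.06 in IVF embryos, -6.87, -0.97, -0.81 and -1.99 in the siCont clones, and -2.06, -3.16, -0.25 and -2.71 in siXist clones. The classes overlapped, and siCont clone 1 was not above background (differences of -1.96 ± 1.29, or -0.56 without that clone, and -1.34 ± 1.29). A second Pdk3 probe had the same sign in both comparisons, and gave -0.52 where the first gave 0.62 between the clone classes. Pdk1 was spread over -8.51 to -2.91 in IVF embryos, -5.54 to 1.11 in siCont and -5.39 to 0.64 in siXist clones, with differences of 2.81 ± 1.77 and 3.22 ± 1.77.

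**Figure D3:**
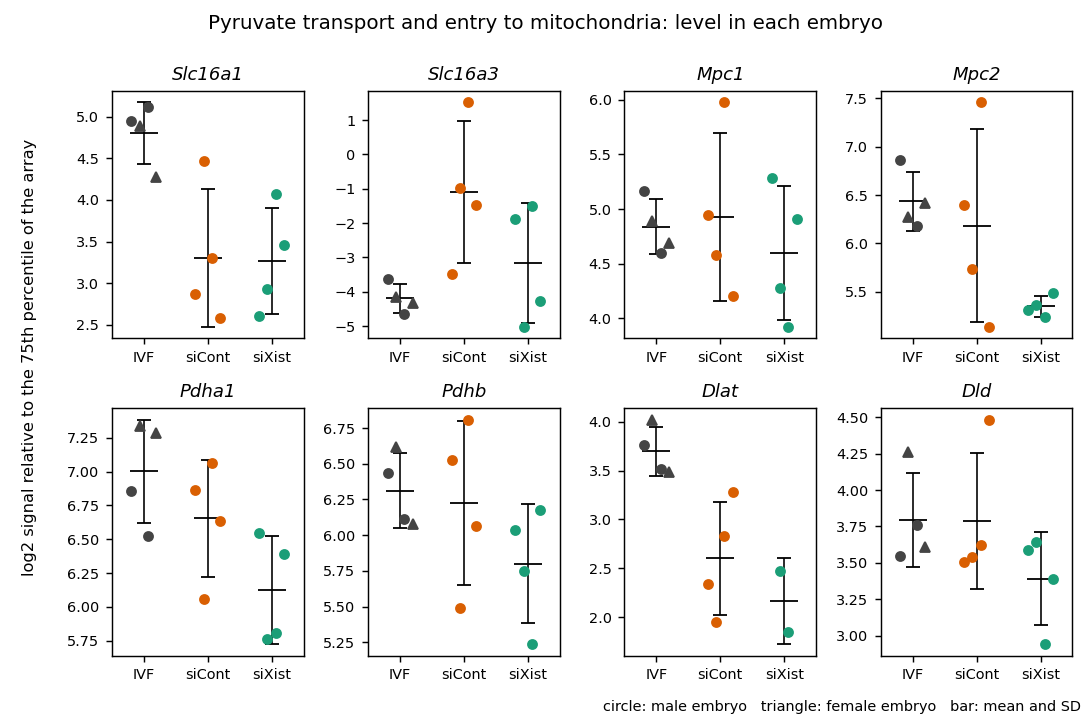
Level of 8 genes of pyruvate and lactate transport and of the pyruvate dehydrogenase complex in each embryo (y axis, log2 signal relative to the 75th percentile of the array) by class (x axis). Circles are male and triangles female embryos, bars give the mean and SD, and Dlat has 2 siXist values. Slc16a1, Mpc2 and Dlat lie lower in all measured siXist clones than in all IVF embryos, for Dlat on the probe shown. The share of all features that separate likewise was not counted.

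Over the 10 tested genes of pyruvate transport and mitochondrial entry, median differences were -0.17 in siCont and -0.69 in siXist clones against IVF embryos, and -0.41 between the clone classes, where those of all features were -0.04, -0.23 and -0.21. An unadjusted p under 0.05 was reached by 1 gene that was higher and 2 that were lower in siCont clones, against 6.84% and 6.73% of all features. In siXist clones it was reached by 0 higher and 4 lower, against 5.05% and 8.84%. The 22 genes of uptake and glycolysis had a median of 1.41 where these 10 had -0.17, and 1.27 where these 10 had -0.69. Neither group was planned and the 22 were joined after their values were seen, so these medians are a description and not a test. The siXist minus siCont median of the 10 changed sign with the scaling, at 0.03 after normexp and quantile normalisation.

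**Figure D4:**
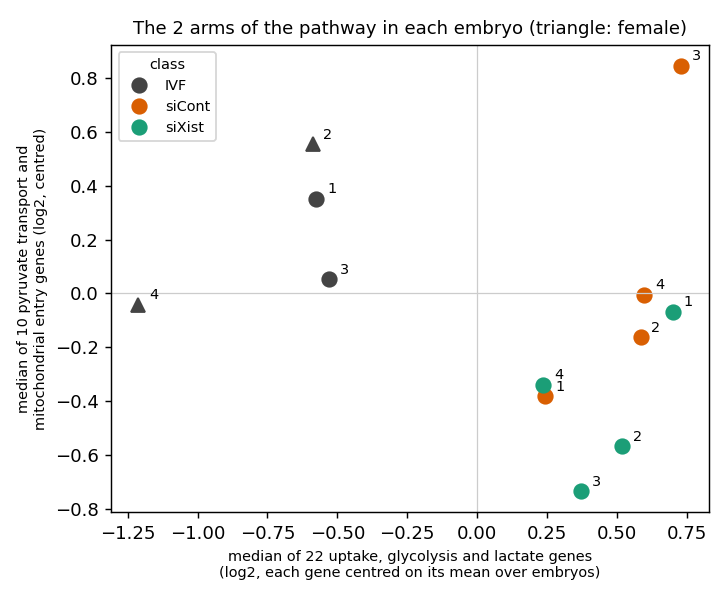
Median of the 22 uptake, glycolysis and lactate dehydrogenase genes (x axis) against that of the 10 pyruvate transport and entry genes (y axis) in each embryo, in log2 with each gene centred on its mean over embryos. Numbers are embryo numbers and triangles are female. Neither group was planned, the 22 genes were joined after their values were seen, and the Pfkfb genes are in neither. All 8 clones lie between 0.24 and 0.73 on the x axis and IVF embryos between -1.21 and -0.53. The classes overlap on the y axis, where siCont clone 3 is highest at 0.84. The array of that clone had the lowest share of probes above background.

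Xist siRNA addresses whether lowering Xist changes gene expression of clones. Between the clone classes, the 36 genes had a median difference of -0.10, with 16 positive and 20 negative. Over all features the median was -0.21 and 39.8% of the differences were positive. The median of the 36 genes became 0.21 after quantile normalisation. At an unadjusted p under 0.05, 0 genes were higher and 2 lower, Hk2 and Bpgm, where 4.39% of all features were higher and 9.51% lower. On the scaling of the authors' deposited table these differences were -0.10 for Hk2 and -0.07 for Bpgm. For Pfkl, Tpi1 and Ldha, the differences between the clone classes of 0.59, 0.56 and -0.20 had SEs of 0.44, 0.44 and 0.69.

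The sexes of IVF embryos, compared on 1 slide with 2 embryos each, gave 0 calls among the listed genes, where 0.0158% of all features were called. At an unadjusted p under 0.05, 0 genes were higher and 2 lower in females, where 1.53% of all features passed in either direction. These were Ldha (-2.53 ± 0.98) and Bpgm (-1.27 ± 0.54), both with an adjusted p of 1. Without female embryo 4 the median of the 36 genes went from -0.11 to 0.27. The X-linked members differed by -0.36 ± 1.54 for Pgk1, with 1 male value since the spot of embryo 1 was missing, 0.62 ± 0.46 for Pdha1, -0.36 ± 1.82 for Pdk3 and 0.07 ± 1.84 for Pfkfb1, with unadjusted p from 0.209 to 0.969. The sign of each of these 4 turned under 1 or more settings. Another kept probe gave a female minus male difference of the other sign for Dlat (-1.33 against 0.12), Pfkfb2 (-1.04 against 0.30) and Slc16a1 (0.17 against -0.45).

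The rest of the pathway was read from 74 further genes, of which 64 were tested and none was called in any comparison. Their median differences were -0.04 in siCont and -0.26 in siXist clones against IVF embryos, and those with an unadjusted p under 0.05 were 2 higher and 4 lower in the former (6.84% and 6.73% of all features) and 3 higher and 5 lower in the latter (5.05% and 8.84%). The higher genes were Gapdhs and Txnip in both, with H6pd besides in siXist clones. Gapdhs and H6pd were kept through the clones, so the counts of higher genes are in part set by the filter. Among other isozymes, Gapdhs, the sperm form of glyceraldehyde phosphate dehydrogenase, was above background in 1 of 4 IVF embryos, 3 of 4 siCont and 4 of 4 siXist clones, and was kept through the clones. Its differences from IVF embryos, in part against background, did not pass (limma adjusted p of 0.211 and 0.118). It is also one of the sperm markers above. Tigar, which lowers fructose 2,6-bisphosphate, gave -0.58 ± 0.38 and -0.99 ± 0.38, and Hk3 0.11 ± 0.31 and -0.73 ± 0.31.

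Basigin (Bsg), the chaperone that brings monocarboxylate carriers to the membrane, differed by -0.83 ± 0.34 in siCont clones against IVF embryos and by 1.25 ± 0.34 between the clone classes, without overlap in either (limma adjusted p of 0.323 and 0.277). The carrier Slc2a2 differed by -1.07 ± 0.39 between the clone classes. Slc2a5 was above background in 4 of 4 siXist clones, -3.49 to -1.53, and in 1 of 4 siCont clones and 2 of 4 IVF embryos. It was kept through the siXist clones alone, so no size is given for its differences. Tkt, the transketolase of the pentose phosphate pathway, lay lower in all clones than in all IVF embryos, by -0.70 ± 0.26 and -0.76 ± 0.26 (adjusted p of 0.294 and 0.244). H6pd, a dehydrogenase of the same pathway in the endoplasmic reticulum, was above background in 2 of 4 IVF embryos, 3 of 4 siCont and 4 of 4 siXist clones and was kept through the clones. Tktl1, a relative of Tkt, was 2.66 to 3.07 in IVF embryos, -1.45 to 2.50 in siCont clones and -8.85 to 1.32 in siXist clones, of which 1 was not above background.

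Of the 12 regulators of glycolytic genes, Hif1a and Arnt among them, 1 was higher and 0 lower in siCont clones against IVF embryos at an unadjusted p under 0.05, and 1 higher and 1 lower in siXist clones. With 12 genes these counts lie near the shares of all features given above. The higher gene was Txnip in both, which restrains glucose uptake, with 2.59 ± 1.01 and 2.57 ± 1.01 (adjusted p of 0.308 and 0.298). The lower gene was Myc, which differed by -0.82 ± 0.77 and -2.30 ± 0.77 (adjusted p of 0.676 and 0.232), and Trp53 by 0.32 ± 0.29 and -0.43 ± 0.29. In gluconeogenesis, Fbp2 gave -1.29 ± 0.55 in siCont and -0.58 ± 0.55 in siXist clones against IVF embryos. G6pc3 gave -0.93 ± 0.45 and 0.20 ± 0.45, and 1.12 ± 0.45 between the clone classes. Slc37a4, above background in 3 of 4 IVF embryos, gave 0.59 ± 1.97 in siCont and 3.33 ± 1.97 in siXist clones. Among shuttle genes, Slc25a13 gave -1.55 ± 0.54 in siCont clones and, from 2 values, -0.38 ± 0.67 in siXist clones. Slc25a12 gave 0.06 ± 0.60 and -0.97 ± 0.60, and Got1 0.29 ± 0.34 and -0.18 ± 0.34, in siCont and siXist clones. For the pyruvate dehydrogenase partners, Lipt1, Pdhx and Pdpr gave -0.77 ± 0.66, -0.12 ± 0.49 and -1.22 ± 2.18 in siCont clones. In siXist clones they gave -1.25 ± 0.66, -0.81 ± 0.49 and -2.06 ± 2.18. For Pdpr, 2 siXist clones were above background.

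Embryos of a class varied in these genes about as much as in others. The median SD over the 36 genes was 0.58 in IVF embryos, 0.79 in siCont and 0.59 in siXist clones, against 0.52, 0.78 and 0.72 over all features. Within IVF embryos, Hk2 had the smallest SD (0.15) and Pdk1 the largest (2.67).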

How the data were processed

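Per the labels' protocols, RNA of single morulae was extracted with TRIzol, amplified in 2 rounds and labelled with Cy3. Per the file headers, the deposited files of each scan give intensity as Agilent Feature Extraction 10.5.1.1 wrote it, with the local background subtracted and a spatial trend removed, and no scaling between arrays. The authors' deposited value table is in log2, and its values were found to be the processed signals in log2 with 1 shift for every array and each probe centred on its median. What the shifts rest on is unknown.

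The log2 processed signal was set relative to the 75th percentile of non-control probes. Outlier spots were left out, and probes had to be well above background on 3 or more of the 4 arrays of a class (24853 of 41174 were). Genes were named through RefSeq accessions, and the kept probe that was brightest on average stands for a gene. All 12 arrays were fitted in limma 3.58.1 (R 4.3.3) with 4 means (siCont, siXist, male IVF, female IVF, the latter pair weighted equally), eBayes and Benjamini-Hochberg adjustment, after a test on simulated data. A precision limit is the number of arrays, 4 in each class.

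Values in every embryo are given for called genes, the 5 smallest p in each class comparison, X-linked members and the brightest isozyme of each step, and for up to 3 genes of each further list their differences. Slc2a1 and Dlat were added after their values were seen. The members and lists were chosen with earlier results of these data known. Alternatives were quantile normalisation, normexp with quantile normalisation (offset 50), the authors' table, no filter, a filter at 6 arrays, the mean of probes, a floor under dim signals, only the groups compared, 1 mean per class, the replicate block and each array left out. Male IVF embryos alone were added after the values were seen.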

Additional observations from a re-analysis of the deposited data

Results flagged for a closer look

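Among 103 gene and class pairs with 4 values, 8 held an embryo whose gap to the nearest other was large for the range of its class, where chance gives about 1 in 20. In siCont clones, clone 3 was lowest for Pkm, at 2.02 against 2.39 to 2.43 in the others, and highest for Adpgk, at 2.96 against 2.19 to 2.31. The array of that clone had the lowest share of probes above background. In the same class, clone 2 was highest for Ldhb, at 4.14 against 1.63 to 2.02, and clone 4 highest for Dld, at 4.48 against 3.50 to 3.62. In siXist clones, clone 3 was highest for Ldha, at 5.47 against 4.29 to 4.31. Clone 1 of that class was highest for Adpgk, at 2.96 against 2.17 to 2.27, and for Pfkfb1, at 0.46 against -0.56 to -0.46. In IVF embryos, embryo 3 was lowest for Pdk1, at -8.51 against -3.67 to -2.91, and was not above background there.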

How the results depend on the processing

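Over 23 alternatives, Pfkl was called in 18 for siCont and 21 for siXist clones against IVF embryos, Ldha in 13 and 12, and Tpi1 in 10 and 17, and no difference of these 3 genes turned. For siCont minus IVF, 0 listed genes were called in the authors' table, with only the groups compared (fewer samples) and against male IVF embryos alone, and 0 to 4 with an array left out. For siXist minus IVF, 5 were called after normexp and quantile normalisation (Aldoa and Pkm besides), 0 against male IVF embryos alone and 1 to 4 with an array left out. The authors' table moved the medians of all features to 0.93 (siXist minus siCont), -1.13 (siCont minus IVF) and -0.67 (female minus male IVF), and those of the listed genes with them, to 1.04, -0.45 and -0.81. The siXist minus siCont median was 0.21 after quantile normalisation. With an array left out the medians ranged from 0.44 to 1.05 for siCont minus IVF, 0.15 to 0.61 for siXist minus IVF and -0.33 to 0.27 for female minus male IVF. X-linked female minus male differences turned in the authors' table for Pdha1 (-0.081) and Pfkfb1 (-0.63), under the block for Pgk1 (1.79) and Pfkfb1 (-1.22), and with an array left out for Pgk1 (-1.17 to 0.45), Pdk3 (-1.54 to 0.82) and Pfkfb1 (-0.27 to 0.41). For alternatives that end a call without changing the samples or the scaling, the cause was not tested. Whether replicate numbers pair the embryos is not given. Deviations of same-numbered embryos correlated at -0.15 to 0.06 (12 pairs), and those of other numbers at -0.17 to 0.17 (36 pairs). Deviations of the IVF embryos of a sex mirror each other, so pairs with an IVF embryo cannot settle this. With the replicate block 0 listed genes were called in any comparison. Embryo 4 of the IVF class was not above background for Pfkl, so that difference rests there on a signal near background.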
